A study of Mus musculus with 15 samples.

Results

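Among 15 libraries of bulk mouse brain RNA, 8 held many reads of Hcrt, the gene of the orexin (hypocretin) neuropeptides, and 5 held few. The sides were chosen by measured values. CPM were taken as a gene's reads over all reads of its library, scaled to a total of 1000000, and 2 libraries with more than 100 CPM of Gabra6, a receptor subunit of cerebellar granule cells, were set aside (control 2, 624 CPM, and levodopa 2, 536 CPM). Of the other 13, in which Gabra6 reached at most 3.29 CPM, those with at least 10 CPM of Hcrt are called orexin-rich and those under 5 CPM orexin-poor, and 0 libraries lay between the limits. The orexin-rich libraries were MPTP 1 to 3, high dose 1 to 3, levodopa 3 and low dose 2. The orexin-poor libraries were control 1 and 3, levodopa 1, and low dose 1 and 3. The libraries nearest to the limits were MPTP 3, with 16.6 CPM, and levodopa 1, with 2.32 CPM.

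The study gave mice MPTP, a toxin that kills dopamine neurons of the midbrain and serves as a model of Parkinson's disease, and then levodopa or a BTK inhibitor. There were 5 groups of 8 mice each, with 3 libraries per group, and the labels give the sampled tissue only as brain. Control mice received a normal diet for 5 weeks after 7 days of acclimation. All other groups received MPTP at 20 mg/kg/day for 1 week, and for the next 4 weeks a normal diet (MPTP), levodopa at 2 mg/kg/day, or the inhibitor at 1 µg/kg/day (low dose) or 2 µg/kg/day (high dose). Elsewhere the labels give the inhibitor as 25 pM and 50 pM, and levodopa as given by mouth in one field and into the peritoneum in another. No source used here gives strain or age. Nothing says outright that a group's libraries came from separate mice, so the p-values measure the spread between these libraries, which may be technical. Library totals ran from 58149722 to 68257095 reads.

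Orexin neurons sit in the lateral hypothalamus and neighbouring fields, project through most of the brain, and promote wakefulness and feeding; their loss is known from narcolepsy. Neurons that make melanin-concentrating hormone (MCH, gene Pmch) lie intermingled with them, are a separate population, and are active above all in sleep. Both kinds of cell body are confined to this territory while their receptors are spread through the brain. Reads of Hcrt and Pmch are therefore used here as marks of such tissue in a brain sample. Whether the libraries differed in the tissue sampled was not tested. In bulk RNA, fewer cells of a type and less RNA per cell cannot be told apart.

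The bases just before the 2 genes' start sites are shown because Hcrt and Pmch moved together across the libraries. They are from RefSeq, GRCm38.p6, 120 bases 5′ to 3′ on the gene's strand up to the base before the annotated start, with TATAAA, the core of a TATA box, in capitals.
Hcrt, chr11:100762932-100763051, minus strand: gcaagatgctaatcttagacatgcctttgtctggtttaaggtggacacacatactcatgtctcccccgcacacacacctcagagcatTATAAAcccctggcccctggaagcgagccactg
Pmch, chr10:88090952-88091071, plus strand: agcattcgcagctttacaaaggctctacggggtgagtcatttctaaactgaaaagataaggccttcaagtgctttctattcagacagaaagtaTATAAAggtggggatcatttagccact
The motif began 33 bases before the start of Hcrt and 27 bases before the start of Pmch. It was searched on both strands, and 2083 of 32851 RefSeq promoter windows of this length (6.34%) held it. A match is a description of the letters only.

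Hcrt levels differed widely on both sides. Among the orexin-rich libraries it stood at 71.5 CPM in MPTP 1, 48.0 in high dose 1, 43.7 in levodopa 3, 29.4 in high dose 3, 26.0 in MPTP 2, 22.0 in low dose 2, 20.7 in high dose 2 and 16.6 in MPTP 3. Among the orexin-poor libraries it stood at 2.32 CPM in levodopa 1, 1.34 in low dose 3, 0.205 in control 3, 0.0603 in control 1 and 0.0339 in low dose 1. The last of these rests on 2 reads and control 1 on 4, near the 3 reads that a count of 0 still allows, so their order is not resolved. Of the 2 libraries set aside, control 2 had 2 reads of Hcrt and levodopa 2 had 0.

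Pmch, which the rule did not use directly, followed the same order of sides. It ran from 98.0 CPM in low dose 2 through 114 in MPTP 3, 162 in high dose 3, 171 in high dose 2, 223 in MPTP 2, 278 in levodopa 3 and 295 in high dose 1 to 446 in MPTP 1. The orexin-poor libraries held 0.322 CPM (low dose 1), 0.693 (control 1), 5.20 (control 3), 7.24 (low dose 3) and 20.5 (levodopa 1). The sides did not overlap, and the log2 ratio of the mean CPM, with 0.1 CPM added, was 5.02 for Pmch against 5.29 for Hcrt. These and all later ratios between the sides are descriptions without a test, because the sides were formed from the reads of the same libraries.

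**Figure D1:**
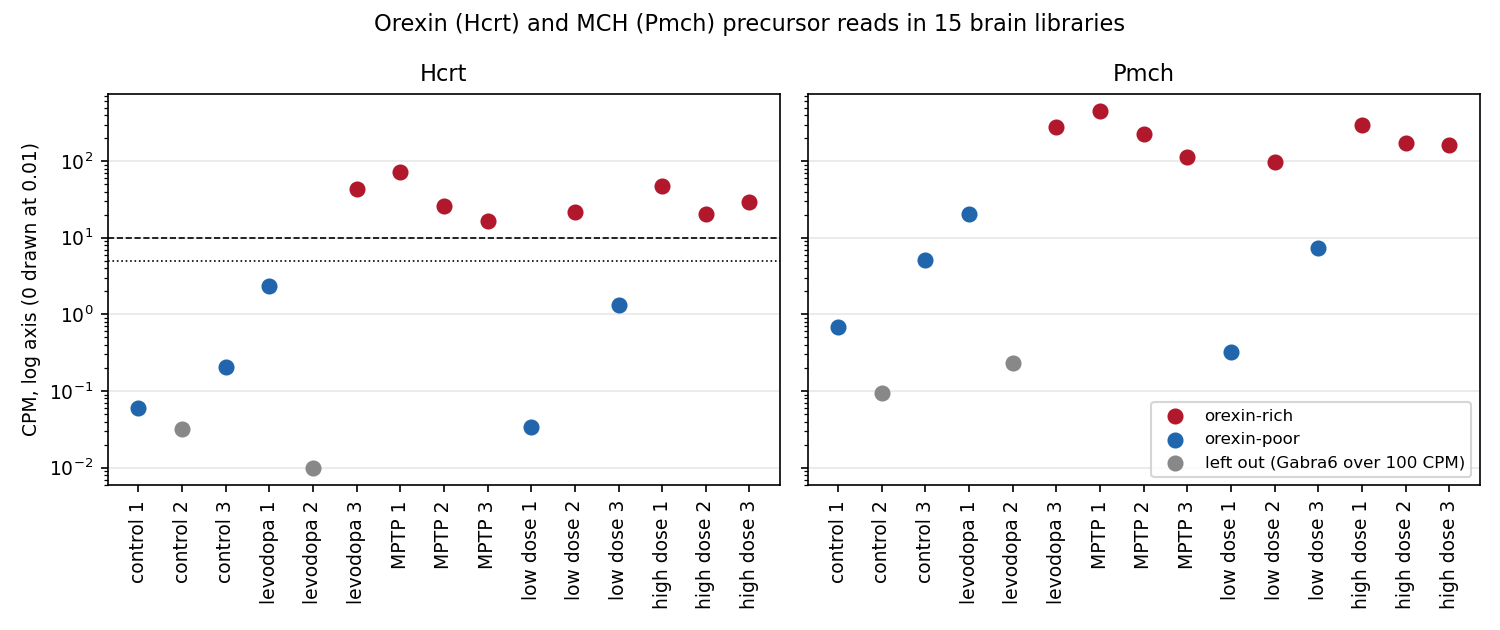
Hcrt and Pmch in each of the 15 libraries in CPM on a log axis (0 drawn at 0.01), 1 point per library, coloured by side or as set aside for Gabra6, with lines at 10 and 5 CPM of Hcrt. All 8 orexin-rich libraries lie at or above 16.6 CPM of Hcrt and 98.0 CPM of Pmch, and all 5 orexin-poor ones at or below 2.32 and 20.5 CPM.

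The balance of the 2 transcripts moved far less than their levels. In the orexin-rich libraries there were 4.46 (low dose 2) to 8.60 (MPTP 2) Pmch reads for each Hcrt read, a ratio of reads that is not corrected for length. Hcrt made up 18.33% of the reads of both genes in low dose 2 (exact 95% interval 17.46 to 19.23) and 10.41% in MPTP 2 (9.96 to 10.89), so these libraries differed beyond counting error, which is all the intervals cover. The orexin-poor libraries gave 8.85 Pmch reads per Hcrt read in levodopa 1, 5.41 in low dose 3, 11.5 in control 1 and 25.36 in control 3. Control 3 had the lowest Hcrt share, 3.79% (2.09 to 6.28), while the interval of low dose 1, 1.17 to 30.38%, spans all the orexin-rich libraries.

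The other genes known from orexin and MCH neurons did not separate the sides. Pdyn, which encodes the dynorphin precursor that orexin neurons release with orexin, ran from 8.04 to 52.2 CPM (median 33.5) in orexin-rich and 4.92 to 65.6 CPM (median 43.6) in orexin-poor libraries. Lhx9, a transcription factor of developing orexin neurons, ran from 12.6 to 66.1 CPM and 8.65 to 58.5 CPM on the respective sides. Nptx2, a synaptic pentraxin, overlapped likewise (18.5 to 25.5 and 18.3 to 32.6 CPM). These genes are also made in other brain regions. Qrfp, a neuropeptide of the lateral hypothalamus, was too low to be counted at a mean of 0.5 CPM over the 13 libraries: it had 4 to 63 reads in each orexin-rich library, 7 in low dose 3 and 0 in the other orexin-poor ones. Among the MCH list, Cartpt, the CART peptide precursor, ran from 14.7 to 75.4 CPM and 11.7 to 98.0 CPM, its highest value falling in the orexin-poor levodopa 1.

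The receptors of both peptides overlapped between the sides too. Hcrtr1 ran from 3.32 to 9.63 CPM in orexin-rich and 2.22 to 15.6 CPM in orexin-poor libraries, and Hcrtr2 from 4.19 to 7.00 and 2.92 to 7.76 CPM. Mchr1, the MCH receptor, ran from 7.67 to 17.5 CPM (median 12.9) and 9.14 to 26.1 CPM (median 23.7). Of these 3 receptor genes, 0 were separated.

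Over all 17383 genes with a mean of at least 0.5 CPM, 31 (0.178%) were higher in every orexin-rich than in every orexin-poor library and 12 (0.069%) were lower in every one. Of 105 genes listed for the hypothalamus and its peptides, 92 were counted in this way, 13 of them (14.1%) lay higher in every orexin-rich library, and 0 lower. The 31, 92 and 13 include Hcrt, whose separation the rule fixed; without it they are 30, 91 and 12. Of the 19 genes that were separated upward with a ratio of mean CPM of 2-fold or more, 13 were on these lists (12 of 18 without Hcrt), and 0 of the 12 lower genes reached 2-fold. The lists were drawn up with earlier results of these data known, and a gene silent on the orexin-poor side passes the filter only through the orexin-rich side, so these counts are a description. With 1 library left out a separated gene stays separated, so the counts can only hold or rise and are no check of stability. The number of separated genes, 43 in all, became 69 without control 1, 100 without control 3 and 125 without levodopa 1. It became 91 without MPTP 3, 69 without low dose 1 and 66 without low dose 3. That of listed genes was 13 to 18.

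Of the 31 genes higher in every orexin-rich library, 18 were on no hypothalamic list. The listed ones included genes known from medial hypothalamic nuclei. Nr5a1, the transcription factor SF-1 of the ventromedial nucleus, had a log2 ratio of 4.33, with 7 (high dose 3) to 395 (MPTP 1) reads in the orexin-rich libraries. In the orexin-poor libraries it had 4 reads each in control 1 and low dose 1 and 0 in the other 3. Fezf1, also a ventromedial transcription factor, stood at 1.24 CPM in MPTP 3, 1.496 in high dose 3, 2.097 in low dose 2, 3.19 in MPTP 2, 3.28 in high dose 2, 4.63 in high dose 1, 5.99 in levodopa 3 and 8.97 in MPTP 1. Its orexin-poor values were 0 in control 3 and levodopa 1, 0.39 in low dose 3, 0.492 in low dose 1 and 0.527 in control 1, below every orexin-rich one.

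Among further transcription factors, Bsx, needed for hypothalamic feeding peptides, ran from 0.402 to 3.26 CPM (median 1.48) on the orexin-rich and 0.0299 to 0.305 CPM (median 0.153) on the orexin-poor side. Hmx3, a homeobox gene of the hypothalamus and inner ear, came close to overlapping: its lowest orexin-rich value was 0.906 CPM in MPTP 2 and its highest orexin-poor value 0.883 CPM in levodopa 1. Of the 14 transcription factors counted, 4 were separated and 13 had a ratio above 0, with a median log2 ratio of 1.43 against 0.01 for all genes. Sim1 and Otp, factors of the paraventricular nucleus, had log2 ratios of 2.02 and 1.74 and overlapped; Sim1 reached 3.80 CPM in control 1, within the orexin-rich range of 1.58 to 11.8 CPM.

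The separated peptide genes were Trh, Npvf and Ghrh. Trh, which encodes thyrotropin-releasing hormone, ran from 14.4 to 65.7 CPM (median 20.4) in the orexin-rich and 3.92 to 9.01 CPM (median 5.87) in the orexin-poor libraries. Npvf, whose RFamide peptides are made in the dorsomedial nucleus, ran from 0.161 to 4.74 CPM (median 1.20) and 0 to 0.135 CPM. Ghrh, the growth hormone releasing hormone of the arcuate nucleus, ran from 0.536 to 2.18 CPM and 0.117 to 0.509 CPM. Their orexin-rich values all lay above their orexin-poor ones.

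Of the 11 counted arcuate and medial peptides, 8 had a log2 ratio above 0 and 3 below. Among the hypothalamic peptides that overlapped, Gal, Oxt and Avp had higher medians on the orexin-rich side. Gal, the galanin precursor, had medians of 8.14 and 2.73 CPM, Oxt (oxytocin) 23.2 and 6.14 CPM, and Avp (vasopressin) 12.9 and 0.92 CPM on the orexin-rich and orexin-poor sides. Pomc, the melanocortin precursor of arcuate and pituitary cells, ran from 2.099 to 11.7 CPM in orexin-rich libraries. The orexin-poor low dose 1 lay far above them at 96.3 CPM. The other orexin-poor libraries lay below every orexin-rich one. They held 1.42 CPM in levodopa 1, 1.83 in low dose 3 and at most 1.01 in the controls. Npy, made by arcuate neurons and by interneurons of the cortex, had the lower median on the orexin-rich side, 16.6 against 19.7 CPM.

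Receptors and signalling genes enriched in the hypothalamus completed the set. Irs4, an insulin receptor substrate, ran from 20.7 to 73.9 CPM against 6.38 to 19.3 CPM, Calcr, the calcitonin receptor, from 5.20 to 20.7 against 2.00 to 4.76 CPM, and Asb4, an arcuate gene for an ankyrin-repeat protein, from 6.19 to 23.1 against 3.48 to 5.28 CPM. Gpr50, a receptor of tanycytes and the dorsomedial nucleus, ran from 1.44 to 7.36 CPM against 0.434 to 1.02 CPM. All 18 counted members of their list had a ratio above 0, and 4 were separated.

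Within the orexin-rich side the libraries were far from alike. MPTP 1 was the highest of the 8 for 20 of the 31 separated genes and levodopa 3 for 6, while MPTP 3 was the lowest for 12 and low dose 2 for 7. The other separated genes included Sytl4, a granule docking protein, with a log2 ratio of 2.14, Gabre, a GABA receptor subunit, with 1.55, and Arhgap36 with 1.42. Nnat, an imprinted gene of neurons, had 0.62. Parpbp had 0.83, but it overlaps Pmch on the opposite strand. Without the strand setting of the counting, reads of the overlap cannot be assigned to 1 of the 2 genes. In the orexin-rich libraries Parpbp reached at most 1.13 CPM and Pmch 446 CPM. Ranked by the likeness of its pattern to Hcrt over the 13 libraries (Pearson's r of log2(CPM + 0.1)), Pmch came first; Arl2bp, Wdr1 and Tmed3, which follow, are broadly expressed genes and were not among the separated ones.

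**Figure D2:**
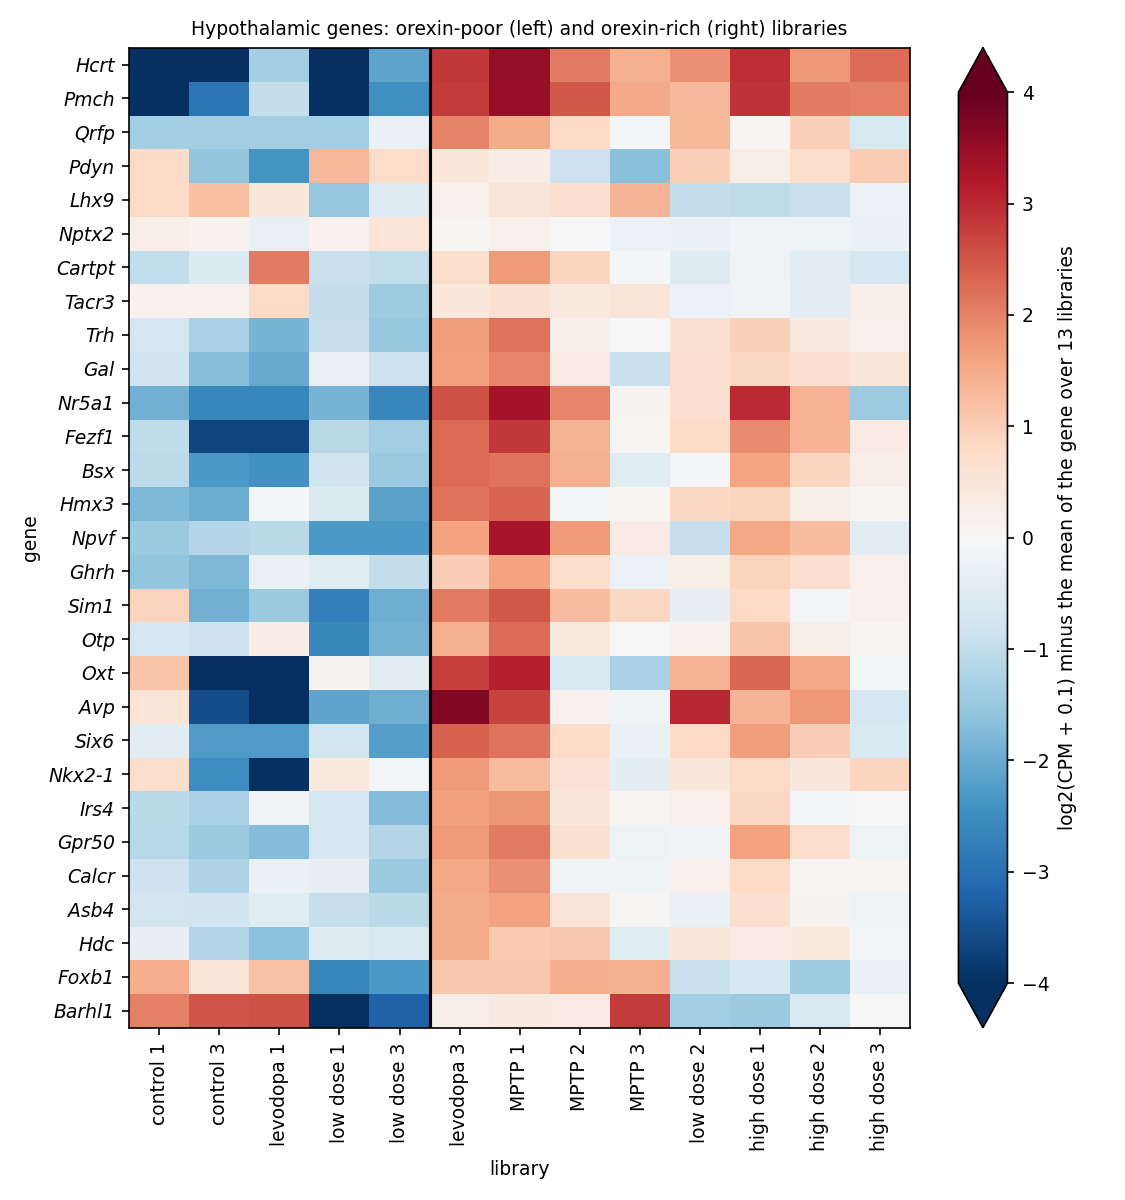
Separated and overlapping hypothalamic genes (rows) in the 5 orexin-poor (left) and 8 orexin-rich (right) libraries, coloured by log2(CPM + 0.1) minus the gene's mean over the 13 libraries, with values beyond the colour scale drawn at its ends. Rows such as Pmch, Fezf1 and Trh change colour at the dividing line, while Pdyn, Lhx9 and Barhl1 do not follow it.

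Genes of neighbouring territories behaved in several ways, given here as measured. Of the 11 counted genes of the mammillary, tuberomammillary and subthalamic fields at the back of the hypothalamus, 0 were separated: Hdc, the histamine-forming enzyme, had a log2 ratio of 1.44, while Foxb1, a mammillary transcription factor, ran from 1.09 to 8.51 and 0.42 to 8.56 CPM. Peptide processing and granule genes had a median log2 ratio of 0.02 over 11 genes. All 12 striatal genes had a ratio below 0 (−1.21 to −0.60), and the striatal sum ran from 328 to 1838 CPM in orexin-rich and 434 to 3455 CPM in orexin-poor libraries. Thalamic genes had a median log2 ratio of 0.39, and 10 of 12 lay above 0. Of the 11 counted genes of dopamine neurons, 10 lay above 0, with sums of 183 to 770 and 91.9 to 674 CPM. None of these regional lists had a separated gene, and their part in the difference between the sides was not tested. The cerebellar list had 1 separated gene of 8, Ppp1r17, also known from the hypothalamus; glial and vascular lists had 0 and medians between −0.04 and 0.09.

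**Figure D3:**
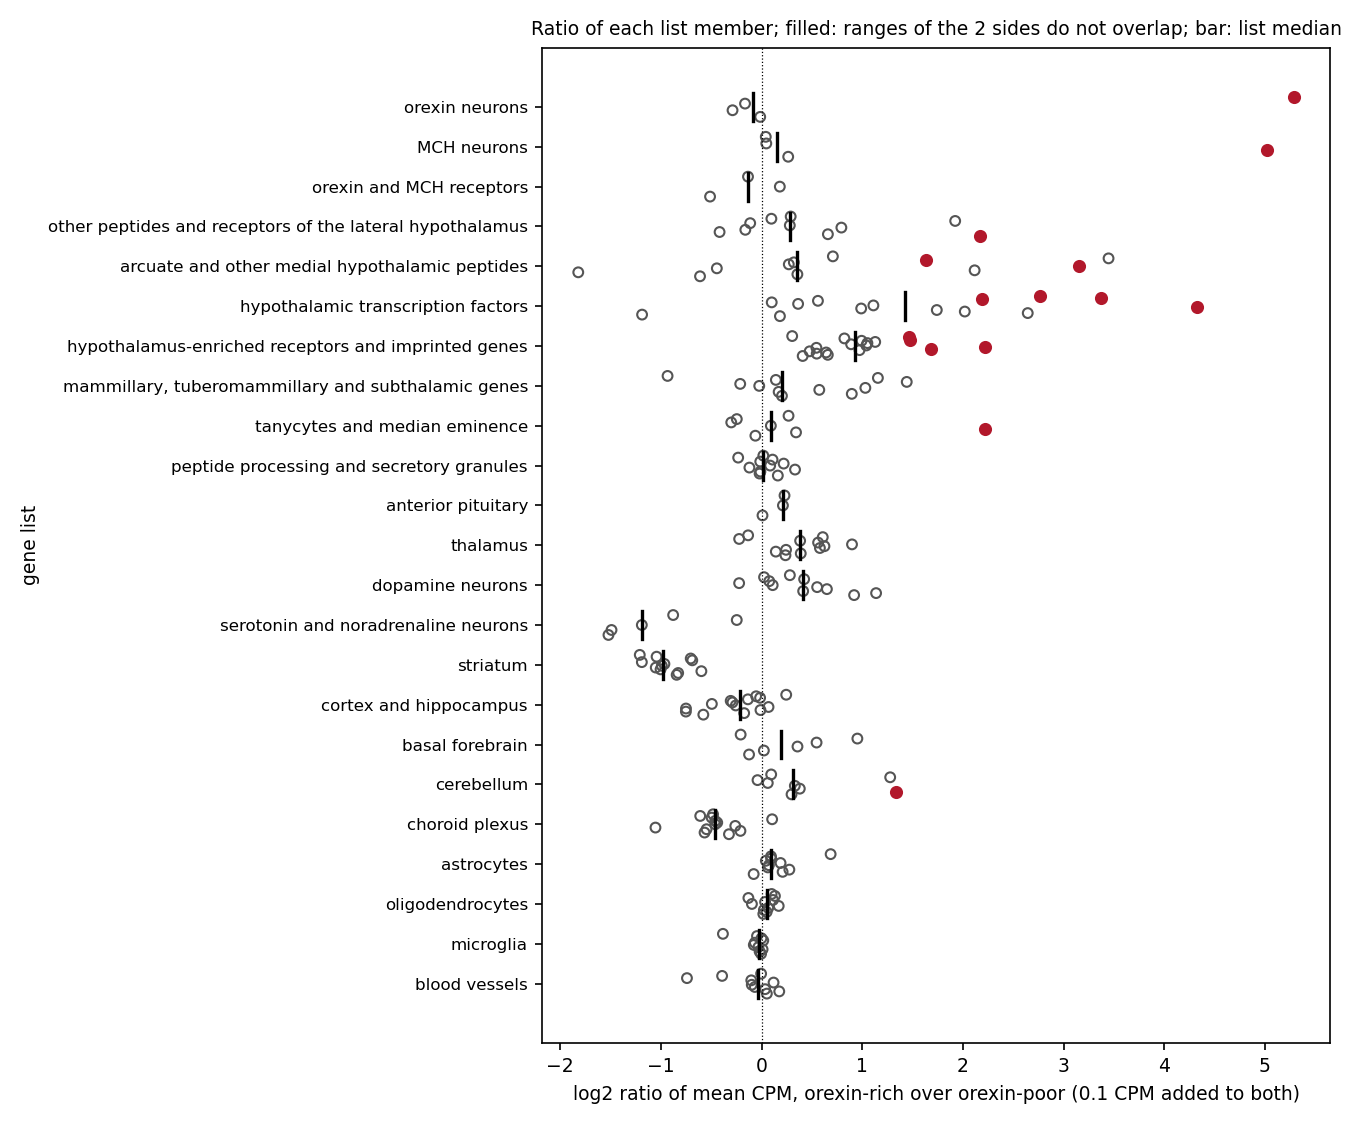
For each gene list, each counted member's log2 ratio of mean CPM between orexin-rich and orexin-poor libraries (circles, filled where the sides do not overlap) with the list's median (bar). The hypothalamic transcription factors have the highest median (1.43) and no striatal gene lies above 0.

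The sides and the treatments were not independent: all 3 MPTP and all 3 high-dose libraries were orexin-rich and no control was. For MPTP against control, side and treatment therefore cannot be told apart. They are mixed in low dose against MPTP too, where low dose 1 and 3 were orexin-poor. In the levodopa and low-dose groups, libraries with the same label lay on both sides. Levodopa 3 exceeded levodopa 1 by log2 ratios of 4.18 for Hcrt, 3.75 for Pmch, 5.93 for Fezf1 and 5.15 for Nr5a1. Low dose 2 exceeded the mean of low dose 1 and 3 by 4.81 for Hcrt, 4.66 for Pmch, 2.02 for Fezf1 and 2.86 for Nr5a1. With 1 library on a side these are values without a test, and between levodopa 3 and levodopa 1 any gene lies higher or lower.

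Libraries from inhibitor-treated mice differed from the others in further genes, so the sides were also set against each other within each kind. Neurod6, a transcription factor of cortical and other forebrain neurons, lay between 20.5 and 90.9 CPM in all 6 libraries with inhibitor and between 0.995 and 6.76 CPM in the 9 others, and the totals of the inhibitor libraries did not overlap those of the others (at most 61998459 and at least 63314658 reads). Among inhibitor libraries, 4 orexin-rich against 2 orexin-poor, 51 of the 92 hypothalamic genes lay higher without overlap and 6 lower, beside 15.1% and 11.6% of all genes. Among libraries without the inhibitor, 4 orexin-rich against 3 orexin-poor, 23 lay higher and 1 lower, beside 3.26% and 1.92% of all genes. Genes separated over all libraries of the 2 sides stay separated in any subset, so both counts hold the 13 such listed genes in advance. The subsets are therefore no independent check. Hcrt, whose separation the rule fixed, had log2 ratios of 5.26 and 5.36 in these subsets, and Pmch 5.55 and 4.90.

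The labelled groups were compared with edgeR's quasi-likelihood test over all 15 libraries. MPTP libraries held 38.0 ± 29.4 CPM of Hcrt (SD, n = 3) and controls 0.0990 ± 0.093 CPM (n = 3), and no MPTP value overlapped a control. For Pmch the values were 261 ± 169 and 2.00 ± 2.79 CPM. The edgeR log2 fold change was 8.49 (SE 2.42) for Hcrt and 6.98 (SE 2.29) for Pmch, each with an adjusted p of 0.717. Of 21821 genes tested, 0 (0.0%) passed an adjusted p of 0.05 in edgeR, 1445 had an unadjusted p below 0.05, and DESeq2 called 53, among them Hcrt (adjusted p = 0.00835) and Pmch (adjusted p = 0.0365).

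High-dose libraries held 32.7 ± 14.0 CPM of Hcrt and low-dose libraries 7.79 ± 12.3 CPM (SD, n = 3 each), and low dose 2 lay within the high-dose range. The edgeR log2 fold change between the doses was 2.05 (SE 1.70, adjusted p = 1.0) for Hcrt and 2.55 (SE 1.85, adjusted p = 1.0) for Pmch. No gene passed between the doses in edgeR (0.0%), 486 had an unadjusted p below 0.05, and DESeq2 called 2. High dose against MPTP, the 2 groups wholly on the orexin-rich side, gave −0.20 (SE 1.64, adjusted p = 0.968) for Hcrt and −0.30 (SE 1.75, adjusted p = 0.954) for Pmch in edgeR; without MPTP 1 the signs turned, to 0.64 and 0.33. Low dose against MPTP gave −2.25 (SE 1.72, adjusted p = 0.452) and −2.85 (SE 1.88, adjusted p = 0.371).

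The number of listed genes called between the inhibitor groups and MPTP depended on which libraries entered the fit. For the low dose, side and treatment were mixed, as all MPTP libraries were orexin-rich and low dose 1 and 3 orexin-poor. A difference of low dose from MPTP therefore cannot be assigned to the inhibitor. Between high dose and MPTP, 2 of 103 hypothalamic genes tested rose and 0 fell, shares near the 1.08% and 0.884% of all genes. Npy rose from 7.14 ± 1.92 to 28.5 ± 6.84 CPM (SD, n = 3 each; edgeR log2 fold change 2.02, SE 0.349, adjusted p = 0.0212), and Gnrh1, the gonadotropin-releasing hormone gene, from 0.876 ± 0.0564 to 2.46 ± 0.469 CPM (1.51, SE 0.345, adjusted p = 0.0473). Between low dose and MPTP, 5 of 103 rose and 1 fell, beside 4.78% and 3.75% of all genes, again no more than near the background. None of these called genes was among those that separate the sides. Npy was again higher, at 44.8 ± 8.66 CPM (2.68, SE 0.358, adjusted p = 0.00294 in edgeR), as were Gnrh1, Dio2, a deiodinase that activates thyroid hormone, and the Wnt antagonist Frzb. Barhl1, a mammillary and subthalamic transcription factor, fell by 4.61 on the log2 scale (SE 1.20, adjusted p = 0.0355). Neurod6 was high in the same libraries, and its part in these changes was not tested.

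Without the 2 libraries of high Gabra6, which are set aside elsewhere, falls outnumbered rises among the listed genes. For the low dose, 11 of 103 rose and 30 fell, beside 12.0% and 11.7% of all genes. For the high dose, 4 of 103 rose and 7 fell, beside 5.89% and 5.21%, which is near the background. With only the compared groups, 12 of 99 rose and 31 fell for the low dose (11.1% and 9.73% of all genes), and 7 of 102 rose and 13 fell for the high dose (9.36% and 8.1%). Without the high Gabra6 libraries, the genes lower in low dose than in MPTP included the orexin receptors Hcrtr1 and Hcrtr2, Lhx9 and Cartpt. Of the genes that separate the sides, Npvf and Asb4 fell in that fit, and with only the compared groups Bsx fell as well. By its choice, a gene that separates the sides is lower in low dose 1 and 3 than in every MPTP library. These calls were therefore partly set in advance. The MCH receptor Mchr1 rose with the low dose in both fits (edgeR log2 fold changes 1.25, adjusted p = 0.0115, and 1.26, adjusted p = 0.00398). Pdyn rose with only the compared groups (1.59, adjusted p = 0.0264 in edgeR). Hcrt and Pmch did not pass in either fit. Npy and Gnrh1 rose for both doses in both fits.

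Single calls also depended on other settings. The Hcrt level of each library, which also formed the sides, was entered as a covariate in 1 setting. Npy (both doses) and Frzb then passed in edgeR. Gnrh1 (both doses), Dio2 and Barhl1 did not (edgeR adjusted p between 0.051 and 0.151). The 429 genes called for high dose against MPTP became 138, 18 and 21 without MPTP 1, 2 and 3 and 43, 22 and 92 without high dose 1, 2 and 3. The 1861 for low dose against MPTP became 884, 421 and 426 without MPTP 1, 2 and 3, and 1074, 1300 and 627 without low dose 1, 2 and 3. Of the 6 fits that each leave out 1 library, Npy for the low dose passed in 6. Npy for the high dose passed in 1, without high dose 3, and Gnrh1 for the high dose in 0. For the low dose, Gnrh1 and Frzb passed in 1 each (without low dose 3), Barhl1 in 1 (without low dose 2) and Dio2 in 0.

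**Figure D4:**
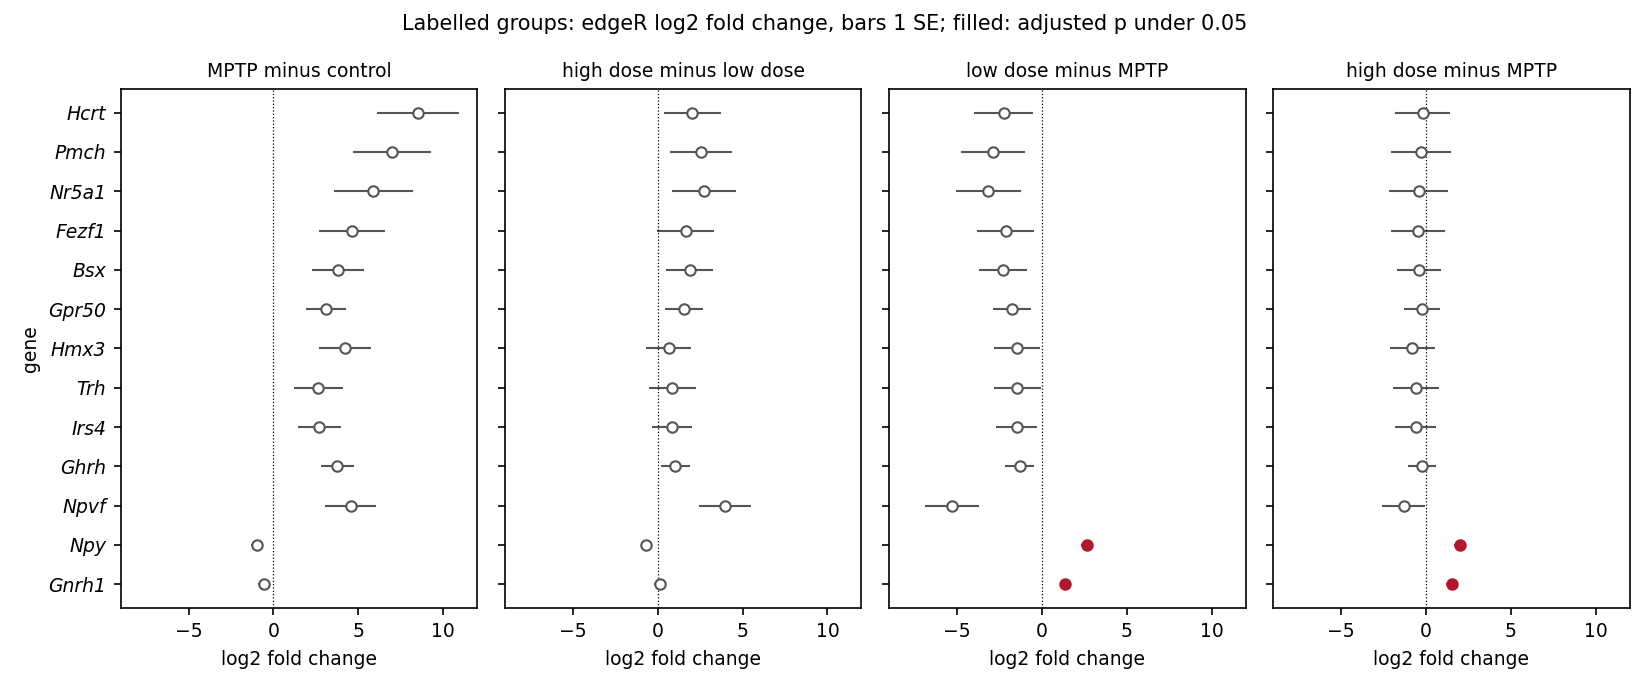
Log2 fold changes from edgeR for Hcrt, Pmch, 9 other separated hypothalamic genes, Npy and Gnrh1 in the labelled comparisons, with bars of 1 SE and filled points where the adjusted p is under 0.05. MPTP against control has the largest values for Hcrt and Pmch (8.49 and 6.98), and high dose against MPTP lies near 0 for both.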

How the data were processed

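Raw read counts per gene symbol were deposited by the authors for 15 libraries of a stranded poly(A) kit, per the labels' protocols. The submitters' processing notes name bcl2fastq 2.20.0, Trimmomatic, HISAT2 2.1.0, StringTie 2.1.3b and GRCm38/mm10; no source used here gives the annotation, the strand setting or the treatment of shared reads. The 13 libraries, the sides and the 24 gene lists were chosen with earlier results of these data known. CPM used library totals over 45777 symbols, and 3 reads equal 0.044 to 0.0516 CPM. The sides were described by ranges, medians and log2 ratios of mean CPM with 0.1 added, over genes with a mean of at least 0.5 CPM. Labelled groups were compared with edgeR 4.0.16 in R 4.3.3 (TMM, filterByExpr, quasi-likelihood, all 15 libraries, Benjamini-Hochberg adjustment), with DESeq2 1.42.0 as an alternative. Tested on simulated data for high against low dose (21375 genes, 3 libraries each), edgeR recovered 36 of 100 genes changed 2-fold. Of those changed 4-fold it recovered 92 of 100, and there were 6 false calls in all. Recovery was not tested separately for genes that vary between libraries of a group as widely as Hcrt and Pmch.

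Named genes are members of the hypothalamic lists, the 15 highest and 15 lowest ratios among separated genes with a mean of at least 1 CPM (10 lower ones qualified), the 10 genes most like Hcrt, and list members called between labelled groups. Some listed genes, 1 of them called between low dose and MPTP, are counted and not reported here by name. Neurod6 and the genes with small ratios were named after their values were seen. No 2 libraries of a group agreed within sampling noise (lowest chi-square per degree of freedom 29.3). Alternatives covered normalization, tool, filter, samples, replicate block, Hcrt level as covariate, pseudocount and each library left out.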

Additional observations from a re-analysis of the deposited data

Results flagged for a closer look

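Within each side, the hypothalamic genes were checked for a library far from the rest by Dixon's criterion. Of 184 checks (1 gene on 1 side each), 15 passed, and chance flags about 1 in 20. On the orexin-rich side, MPTP 1 stood apart for Cartpt (75.4 CPM), Npvf (4.74 CPM), Otp (24.0 CPM) and Rln3 (2.05 CPM), MPTP 3 for Barhl1 (12.1 CPM) and Sox14 (6.88 CPM), and high dose 2 for Vip (22.9 CPM). On the orexin-poor side, levodopa 1 stood apart for Cartpt (98.0 CPM) and Ndn (358 CPM), control 1 for Avp (6.35 CPM) and Sim1 (3.80 CPM), and control 3 for Prlr (22.9 CPM). Low dose 1 stood apart for Pomc (96.3 CPM), and low dose 3 for the granule genes Chgb (615 CPM) and Scg3 (323 CPM).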

How the results depend on the processing

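The number of separated genes, 43, was 47 with TMM-scaled totals, 56 at a mean of 0.1 CPM and 26 at 5 CPM. It was 4641 among inhibitor libraries and 901 among the others, where fewer libraries a side make separation easier. Leaving out 1 library, which can only hold or raise the count, gave 51 to 125. For high dose against MPTP the 429 calls of edgeR became 214 without a low-count filter, 226 with a replicate block, 2477 without the 2 libraries of high Gabra6, 3560 with only the compared groups and 1620 in DESeq2, and 18 to 138 without 1 library. For low dose against MPTP the 1861 calls became 1224, 1723, 5288, 4253 and 3280 under the same settings, 975 with Hcrt level as a covariate, and 421 to 1300 without 1 library; the cause of these shifts was not tested. For MPTP against control and high against low dose, edgeR called 0 genes in every alternative run, leave-one-out included (0 to 0), and DESeq2 53 and 2. Deviations of same-numbered libraries from their group means had correlations of −0.074 to 0.239, and those of other pairs −0.179 to 0.095. The highest, 0.239, was MPTP 1 with control 1. The replicate block treats same-numbered libraries as pairs. It moved the counts of the high dose from 429 to 226 and left MPTP against control and high against low dose at 0. The log2 fold change of Hcrt for high dose against MPTP turned to 0.64 without MPTP 1 and 0.03 without high dose 2 (range −0.56 to 0.64), and that of Pmch to 0.33 without MPTP 1 (range −0.64 to 0.33). With Hcrt as covariate, Pmch for MPTP against control turned to −0.997. That covariate is the value that formed the sides, and Pmch follows it closely (Pearson's r 0.985). This shift was thus largely fixed in advance. With 1 CPM added in place of 0.1, ratios of low genes shrank (Nr5a1 4.33 to 1.74). Of the recomputed ratios, 110 stayed within their spread, 14 moved and 0 reversed. Of the 105 listed genes, DESeq2 called 7 higher and 9 lower for low dose against MPTP, beside 1718 and 1562 of all 45777 symbols. For high dose against MPTP it called 3 higher and 1 lower, beside 883 and 737 of all symbols. Hcrt rests on 4, 2 and 2 reads in control 1, control 2 and low dose 1, too few to order these libraries.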

Other observations

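Several gene lists of other tissues had no separated gene. Genes of serotonin and noradrenaline neurons had a median log2 ratio of −1.19 over 5 counted genes, cortical and hippocampal genes −0.22 over 14, and choroid plexus genes −0.46 over 13. Choroid plexus sums ran from 33.5 to 1550 CPM in orexin-rich and 52.8 to 1328 CPM in orexin-poor libraries. Basal forebrain genes had a median of 0.19 over 6. Of the anterior pituitary genes, 3 of 8 were counted (median 0.21), and of the 10 hindbrain Hox genes 0. Among tanycyte genes, 1 of 7 counted was separated, Gpr50, and the median was 0.09.

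The 12 genes lower in every orexin-rich library had small ratios, and 0 of them were on a hypothalamic list. The lowest were Pram1 (−0.63), AW046200 (−0.59) and Myo1a (−0.56), all below 3 CPM on the orexin-poor side, and Fgf10 (−0.50), a growth factor made by tanycytes among other cells. Several separated higher genes had ratios nearer to 0, such as Prnp, the prion protein gene, with 0.20, Rlim with 0.17 and Orc2 with 0.10.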
